A study of Homo sapiens with 8 samples.

Results

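The enzymes described here are the cytosolic and mitochondrial aminoacyl-tRNA synthetases, with AIMP1 and AIMP2, which hold a group of the cytosolic enzymes together. They were chosen by gene symbol from a list of 38 names. The rule uses no measured value, but the list was drawn up with earlier results of these data known. Of these, 29 had a row among the 4616 genes of the authors' deposited table: all 22 names on the cytosolic side of the list and 7 of 16 mitochondrial ones. AARS2, FARS2, LARS2, MARS2, NARS2, PARS2, SARS2, VARS2 and WARS2 were not analysed here. The cells were WM902B, a human line from a primary melanoma that carries BRAFV600E, at passage 18. They were infected with a hairpin labelled shSCR, the scrambled control, or with shTINCR, directed at the long non-coding RNA TINCR. Both groups received 100 µg/ml cycloheximide for 5 min, and the labels give no difference between the arms other than the hairpin. For each hairpin, 2 biological replicates of ribosome-protected fragments (RPF) and 2 of RNA, given as polyA RNA, make 8 libraries in all. The titles of the RNA libraries read totRNA or torRNA instead, so the kind of RNA sequenced is not settled by the labels. Each arm was 1 cell line with 1 named hairpin.

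Aminoacyl-tRNA synthetases join each amino acid to the tRNAs that carry it to the ribosome. They fall into a pair of families with unrelated catalytic folds, class I and class II. In the cytosol of animal cells a set of them, with the AIMP scaffold proteins, is bound in the multisynthetase complex, while others work outside it. The latter are called free enzymes here, whether or not they bind other proteins. FARSA and FARSB, chains of the phenylalanyl enzyme, are counted separately. Mitochondria make their own few proteins with a separate set of synthetases that are encoded in the nucleus and imported, and GARS and KARS serve both compartments from 1 gene each. When amino acids run short, uncharged tRNA activates the kinase GCN2, which raises translation of the transcription factor ATF4, and many cytosolic synthetase genes are known targets of ATF4.

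The question put to these cells was which mRNAs gained or lost translation, for their abundance, when TINCR was targeted. The measure is translational efficiency (TE), the footprints on an mRNA relative to its abundance, given as log2 TE in shSCR and in shTINCR cells and as the log2 change between them. The table held 1 value per hairpin and none per library, so neither library depth nor replicate spread is known. A rise in TE can come from more footprints or from less mRNA, and these cannot be told apart here. Nor can fewer cells of a type and less RNA per cell be told apart in bulk samples. TINCR had 0 rows, so its silencing was not checked. Of 11 melanocyte lineage markers 8 had a row (MITF, SOX10, PMEL, MLANA, TYR, DCT, S100A1 and S100B), while PAX3, TFAP2A and TYRP1 had none. The markers of other cell types with a row were DSP of 6 for keratinocytes, COL1A2 of 6 for fibroblasts, 0 of 3 for endothelium and CD68 of 3 for leukocytes.

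The synthetases did not move as a family. At the authors' adjusted p below 0.05, 2 of the 29 members rose (WARS and MARS), 3 fell (QARS, RARS and IARS2) and 24 did not pass. That is 17.2% of the members, beside 16.4% of all 4616 genes in the authors' deposited table (8.23% higher and 8.17% lower). Their share of calls was thus near the background. The median log2 change was -0.0020 over the members and 0.016 over all genes, with values from -0.61 to 0.46 among the members. The SD of the change across genes was 0.246 for the members and 0.249 for all genes. On the cytosolic side 2 rose and 2 fell of 22 (18.2%), with a median log2 change of -0.015. On the mitochondrial side 0 rose and 1 fell of 7 (14.3%), with a median of 0.041. The difference between the compartments was not tested.

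**Figure D1:**
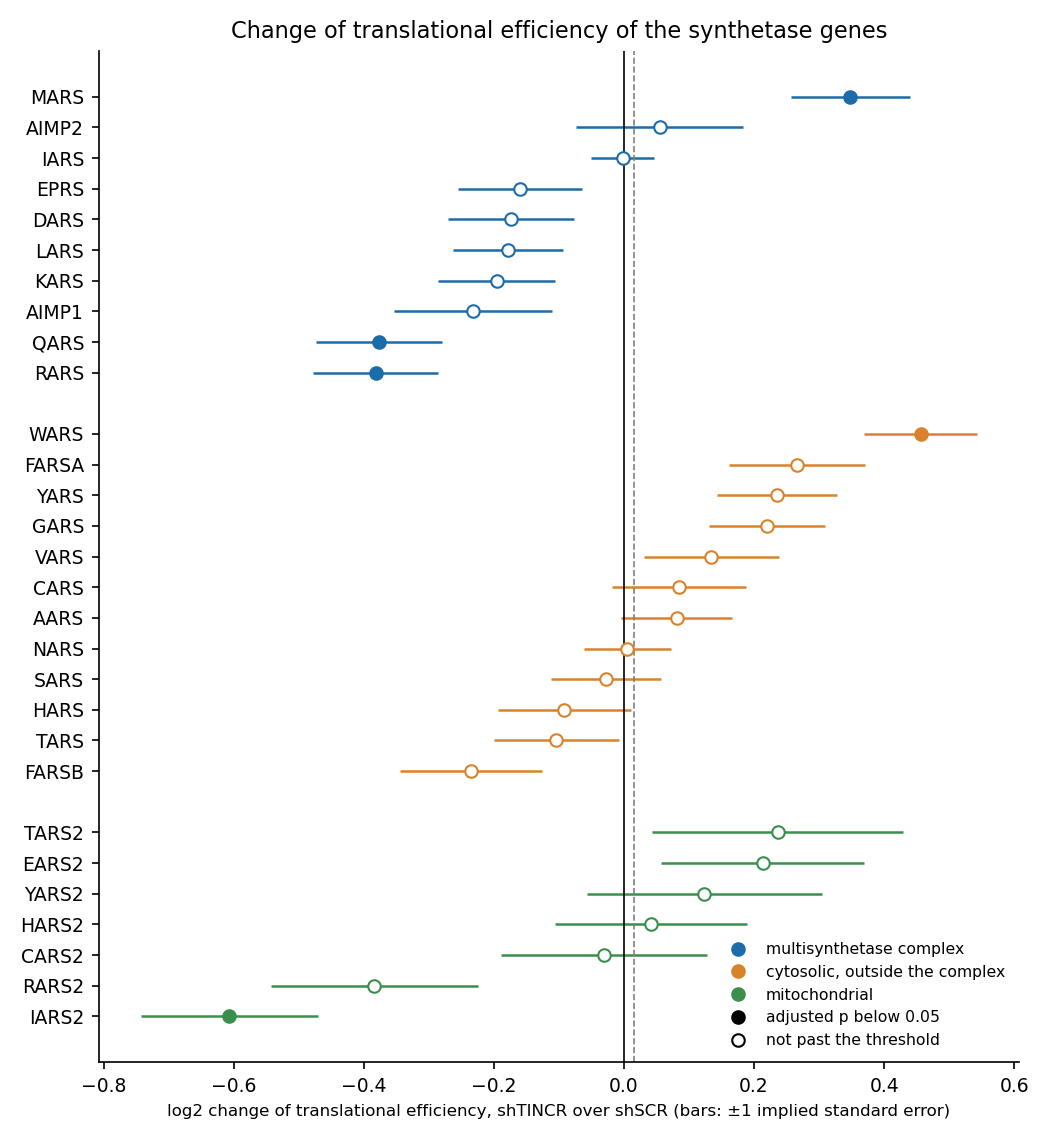
Log2 change of TE, shTINCR over shSCR, for the 29 members, in 3 groups (colours). Bars are ±1 standard error implied by the change and its p-value, filled points passed the adjusted p of 0.05, and the dashed line is the median of all genes (0.016). Of the 10 complex members 8 lie below 0, against 4 of 12 cytosolic enzymes outside it and 47% of all genes. Past the threshold, 2 complex members fell and 1 rose, and the difference between these groups was not tested.

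WARS, the tryptophanyl-tRNA synthetase, works outside the complex and is also known as a gene induced by interferon. Its log2 TE went from 0.49 in shSCR to 0.95 in shTINCR cells in the authors' deposited table. This is a log2 change of 0.46, or 1.37-fold, the highest of the members (adjusted p = 1.17e-05, from the authors' deposited table). WARS thus stood above the median gene in both conditions, and at percentile 96.1 of all changes. MARS, a member of the complex, charges both initiator and elongator methionine tRNAs. In the authors' deposited table its log2 TE was 0.35 in shSCR and 0.70 in shTINCR cells, a change of 0.35 (1.27-fold, adjusted p = 0.00296).

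RARS and QARS, the arginyl- and glutaminyl-tRNA synthetases, are known to bind each other and AIMP1 as a module of the complex. RARS had a log2 TE of -0.14 in shSCR and -0.52 in shTINCR cells, a change of -0.38 (0.768-fold, adjusted p = 0.0018, from the authors' deposited table). QARS went from -0.22 to -0.60, a change of -0.38 (0.770-fold, adjusted p = 0.00248, from the authors' deposited table). These partner enzymes were already below the median gene in control cells and were lower by nearly the same amount in shTINCR cells. AIMP1, the scaffold of that module, had a log2 TE of 0.85 and 0.62 and a change of -0.23 that did not pass (adjusted p = 0.18, from the authors' deposited table).

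Of the complex members MARS, RARS and QARS passed, and the other 7 did not, while 16.4% of all genes passed. The lysyl enzyme KARS had a change of -0.20, the leucyl enzyme LARS -0.18, the aspartyl enzyme DARS -0.17 and EPRS, which fuses the glutamyl and prolyl enzymes, -0.16 (from the authors' deposited table). The adjusted p of these 4 ran from 0.12 for KARS to 0.246 for EPRS in the authors' deposited table. The isoleucyl enzyme IARS stood at -0.0020 (adjusted p = 0.981) and the scaffold AIMP2 at 0.055 (adjusted p = 0.819), by the authors' deposited table. IARS had the lowest TE of the complex in control cells, with a log2 TE of -0.61, and AIMP2 the highest, with 1.31 (from the authors' deposited table).

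Counted by sign, 8 of the 10 complex members lay below 0 and 2 above, with a median log2 change of -0.18. Of the 12 cytosolic enzymes outside the complex 4 lay below 0 and 8 above, with a median of 0.083, while 47% of all genes in the authors' deposited table lay below 0. The counts below 0 include members that did not pass: in the complex 1 member rose and 2 fell, and outside it 1 rose and 0 fell. Of all genes, 8.23% rose and 8.17% fell by the same threshold. The sign of the free enzymes' majority rests on small values: after the median of all genes was subtracted, 7 of 12 were above it, since NARS changed side, and 8 of 10 complex members were still below. Without members that have a named pseudogene or a small nucleolar RNA gene inside them, the median was -0.18 over 4 complex members and 0.053 over 6 free enzymes, 3 of which lay on each side of 0. The difference between complex and free enzymes was not tested.

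The free enzymes nearest to the threshold were all higher in shTINCR cells. YARS, the tyrosyl enzyme, went from a log2 TE of -0.031 to 0.20, a change of 0.23 (adjusted p = 0.0605, from the authors' deposited table). FARSA, the catalytic α chain of the phenylalanyl enzyme, went from 0.87 to 1.14 (change 0.27, adjusted p = 0.0613, from the authors' deposited table). GARS, the glycyl enzyme, went from 1.18 to 1.40 (change 0.22, adjusted p = 0.0735, from the authors' deposited table). These 3 missed the threshold on the final p-value, and all 3 passed on the p-value of the authors' second version (adjusted p = 0.0286 for FARSA, 0.0207 for GARS and 0.0411 for YARS, against 20.3% of all genes called there).

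FARSB, the β chain that forms a tetramer with FARSA, lay on the opposite side. Its log2 TE was the highest of all members in shSCR cells, 1.36, and 1.12 in shTINCR cells, a change of -0.23 that did not pass (adjusted p = 0.125, from the authors' deposited table). The control gap between the chains, 1.36 against 0.87, was thus almost closed in shTINCR cells, at 1.12 for FARSB and 1.14 for FARSA (from the authors' deposited table). Neither chain passed alone, and the difference between them was not tested.

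The other free enzymes lay closer to 0. In the authors' deposited table the log2 changes were 0.13 for the valyl enzyme VARS, 0.085 for the cysteinyl enzyme CARS, 0.081 for the alanyl enzyme AARS and 0.0054 for the asparaginyl enzyme NARS. On the lower side of the authors' deposited table were the seryl enzyme SARS (-0.027), the histidyl enzyme HARS (-0.092) and the threonyl enzyme TARS (-0.10). The smallest adjusted p among these 7 was 0.404, for VARS (from the authors' deposited table).

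IARS2, the mitochondrial isoleucyl enzyme, had the largest change of the members. Its log2 TE was -0.36 in shSCR and -0.97 in shTINCR cells, a change of -0.61, or 0.657-fold (adjusted p = 0.000342, from the authors' deposited table). Only 0.672% of all genes had a change as low or lower. The cytosolic counterpart IARS was close to 0 (-0.0020, from the authors' deposited table). RARS2, the mitochondrial arginyl enzyme, went from -0.56 to -0.94, a change of -0.38 that did not pass (adjusted p = 0.08, from the authors' deposited table).

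The remaining mitochondrial enzymes did not pass. TARS2 (threonyl) had a log2 change of 0.24, EARS2 (glutamyl) 0.21, YARS2 (tyrosyl) 0.12, HARS2 (histidyl) 0.041 and CARS2 (cysteinyl) -0.031 in the authors' deposited table. Set against the cytosolic enzyme for the same amino acid, the sign was shared in 3 of 7 pairs. The pairs for arginine and tyrosine had both enzymes on the same side, lower and higher. The isoleucine pair shared a sign only because IARS lay just below 0.

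RARS and RARS2 had the same log2 change of -0.38, but only RARS passed (from the authors' deposited table). The standard error implied by the change and its p-value was 0.0962 for RARS and 0.159 for RARS2. It is computed from the same p-value that made the call, so it restates the call on a scale of error and gives no reason for it. It was larger for the mitochondrial enzyme in 7 of 7 pairs, with a median of 0.158 over the mitochondrial and 0.0954 over the cytosolic members. The largest unadjusted p that passed was 0.00817. At these medians, a gene needed a log2 change of about 0.417 on the mitochondrial side and 0.252 on the cytosolic side to pass. A change of the size of that of RARS lies under the mitochondrial value. The implied error is unreliable for changes near 0, such as that of IARS.

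**Figure D2:**
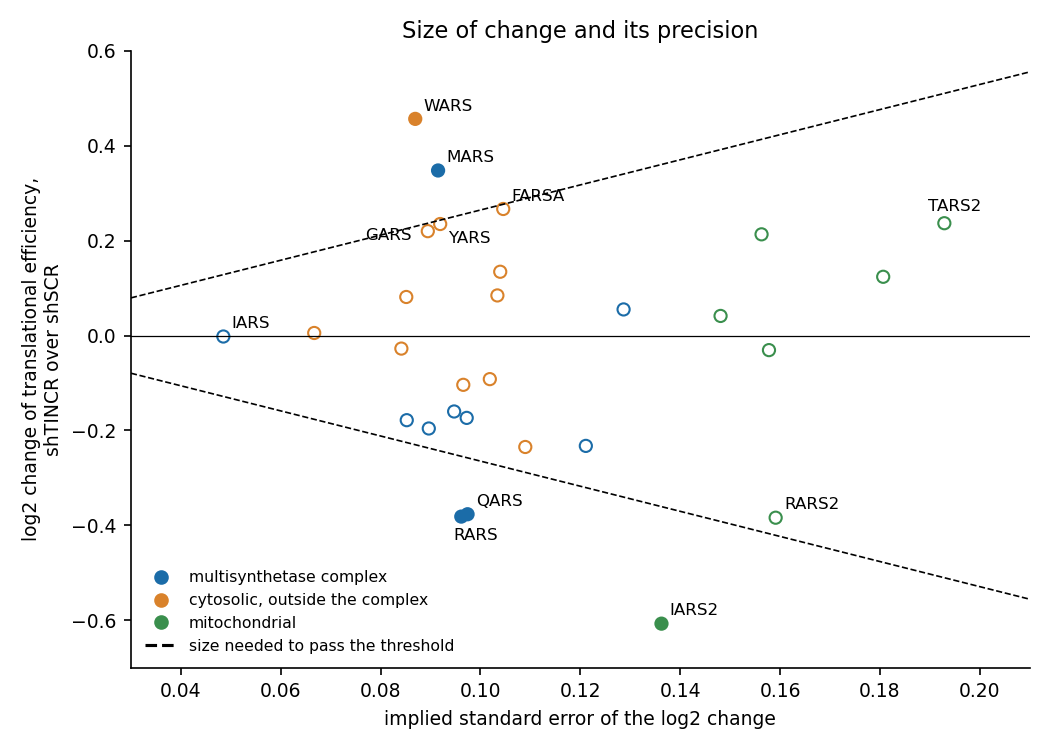
Log2 change of TE (vertical) against its implied standard error (horizontal) for the 29 members, coloured by group and filled where the adjusted p was below 0.05. Dashed lines show the size needed to pass. RARS and RARS2 lie at the same height, with implied errors of 0.0962 and 0.159, and RARS2 lies inside the lines.

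Levels of TE in control cells differed more between members than the hairpin moved them. In shSCR cells the log2 TE ran from -0.76 for EARS2 to 1.36 for FARSB, and the median was 0.56 for free cytosolic enzymes, 0.14 for complex members and -0.36 for mitochondrial enzymes (from the authors' deposited table). The median of all genes was 0.0078. Of the free cytosolic enzymes 11 of 12 had a log2 TE above 0, YARS being the exception, against 7 of 10 complex members and 3 of 7 mitochondrial enzymes. Within pairs the mitochondrial enzyme had the lower TE in 4 of 7. IARS2, TARS2 and YARS2 had a higher TE than their cytosolic counterparts. In shTINCR cells the medians were 0.74 for free enzymes and -0.032 for complex members (from the authors' deposited table). No test of levels between genes was made. Across the 29 members, which share the same libraries, the log2 TE in shSCR and its change had a Pearson r of 0.304, against -0.047 across all genes. The change contains the shSCR value, so this is a description only.

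**Figure D3:**
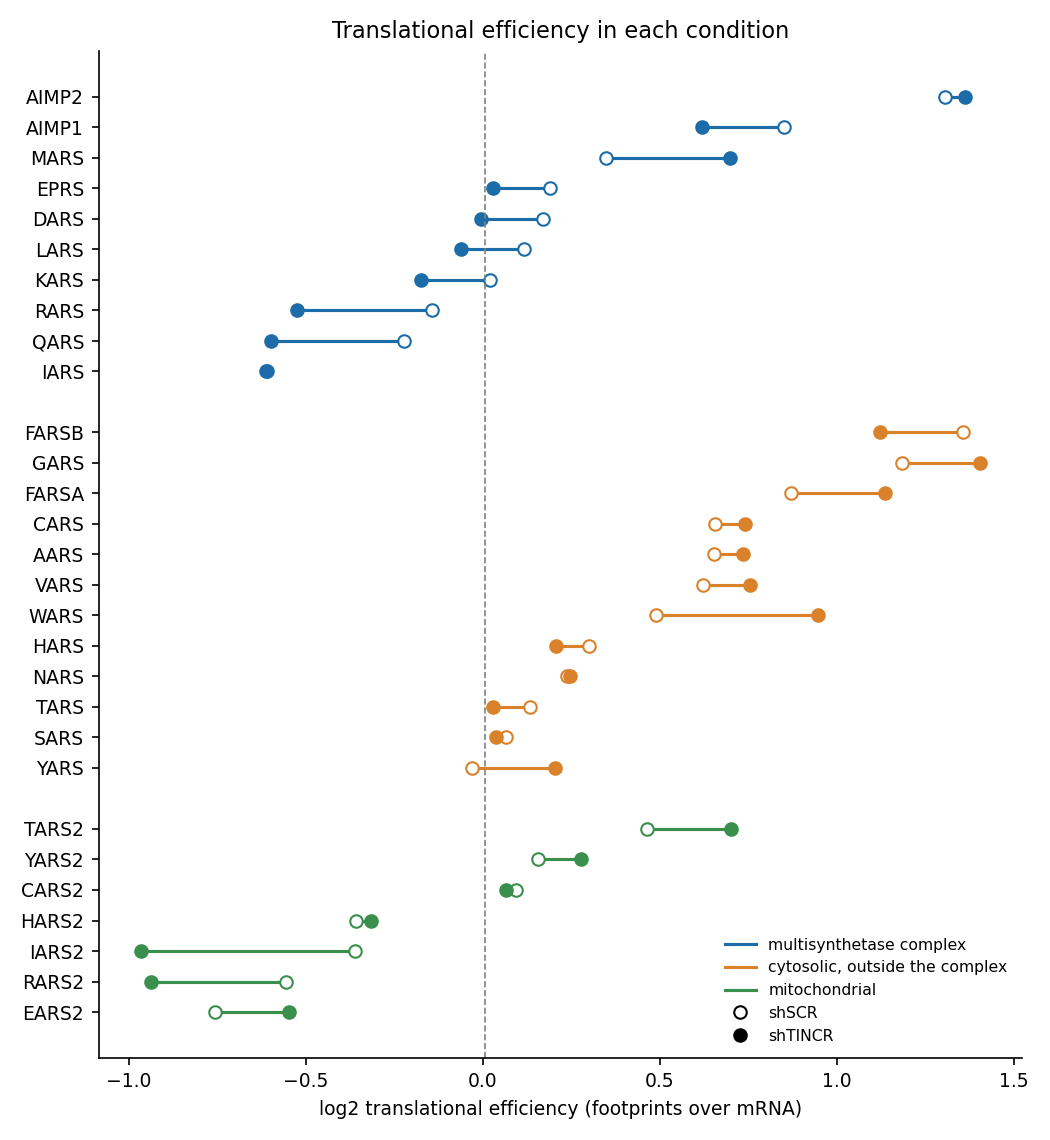
Log2 TE of each member in shSCR (open) and shTINCR cells (filled), by group, with the median of all genes in shSCR as a dashed line. FARSB and FARSA nearly meet in shTINCR cells at 1.12 and 1.14, and IARS2 and RARS2 reach the lowest values, -0.97 and -0.94.

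All 5 members that passed were class I enzymes. Of 9 cytosolic class I enzymes 4 passed (44.4%) and of 10 in class II 0 passed, beside 16.4% of all genes, and 4 of the class II enzymes reached an unadjusted p below 0.05 by the authors' deposited table. On the mitochondrial side 1 of 5 class I and 0 of 2 class II enzymes passed. The changes of class I went both ways, with a median of 0.085 for the cytosolic ones, and the SD across genes was 0.299 in class I and 0.171 in class II. EPRS, which holds an enzyme of each class, is counted in neither. With so few enzymes a count of 0 is near the share of all genes, and whether the classes differ was not tested.

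RefSeq promoter windows (GRCh38.p14, 250 bases before to 50 after a gene's start) were found for 25 of the 29 members, and DARS, LARS, VARS and YARS are named only. They were searched on both strands for TGATGNAA, which reads TTNCATCA on the other strand and is the core of the C/EBP-ATF response element, the site through which ATF4 acts on its target genes. No measured member had both this motif and the pyrimidine start described below, and overlap in other genes was not counted. The letters were found for 7 of 18 cytosolic members (38.9%), 1 of 7 mitochondrial ones (14.3%) and 101 of 3861 genes of the table (2.62%), and in 3.62% of all 35116 windows. Within 50 bases of a start they were found for 6 of 18 cytosolic members (33.3%) and 0.907% of the genes of the table. The 8 windows are shown because they carry this shared feature. Each is 30 bases on the gene's strand, with the motif in capitals.
MARS, chr12:57488053-57488082, + strand: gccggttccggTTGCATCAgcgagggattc
CARS, chr11:3057407-3057436, - strand: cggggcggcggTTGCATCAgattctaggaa
IARS, chr9:92293692-92293721, - strand: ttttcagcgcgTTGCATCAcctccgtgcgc
GARS, chr7:30594834-30594863, + strand: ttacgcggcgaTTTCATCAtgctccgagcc
TARS, chr5:33440956-33440985, + strand: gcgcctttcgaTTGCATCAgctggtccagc
NARS, chr18:57621804-57621833, - strand: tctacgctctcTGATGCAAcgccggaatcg
AARS, chr16:70289675-70289704, - strand: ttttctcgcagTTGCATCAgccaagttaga
YARS2, chr12:32756076-32756105, - strand: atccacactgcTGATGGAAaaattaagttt

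In MARS, CARS, IARS and TARS the motif lies at or within 13 bases of the start, in GARS 33 bases before 1 of its 2 listed starts, and in AARS and YARS2 187 and 197 bases before it. NARS has it downstream of its start, from base 15. Among all 4616 genes 2425 had a log2 change above 0, and 16.4% passed. Of the 8 genes with these letters 6 had a log2 change above 0 and 1, MARS, passed. Their median was 0.083, with values from -0.10 (TARS) to 0.35 (MARS) in the authors' deposited table. The 17 members without the letters in the window had a median of -0.092 and 6 values above 0. They include WARS, the highest change, and QARS, RARS and IARS2, which fell. Of the genes with the letters only MARS and IARS belong to the complex, while EPRS, KARS, QARS, RARS, AIMP1 and AIMP2 lack the letters. Most of the mitochondrial members lack them too. The difference between members with and without the letters was not tested. The table gives TE and not mRNA, so whether genes with this promoter motif changed in mRNA was not tested.

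The first bases of the mRNA were set beside those of the elongation factors, because 5′ terminal oligopyrimidine (TOP) mRNAs begin with C and a run of pyrimidines and are known to be translated under mTORC1 control. A start with C and at least 4 further C or T was found at a RefSeq start of 45 of 63 cytosolic ribosomal protein genes (71.4%), 3 of 5 elongation factor genes, 8.68% of the genes of the table and 1 of 25 members, QARS. The first 20 bases of the members that passed and of EEF2 and EEF1A1 are shown for comparison, with such a run in capitals. For WARS the upstream of 2 listed starts is given.
WARS, chr14:100376308-100376327, - strand: gtttccacggacgcccagga
MARS, chr12:57488068-57488087, + strand: atcagcgagggattcacggc
QARS, chr3:49104738-49104757, - strand: CTTTTagtttccggtgtctc
RARS, chr5:168486471-168486490, + strand: acttggcgagtgagacgctg
IARS2, chr1:220094132-220094151, + strand: actcggctccccttggtttc
EEF2, chr19:3985444-3985463, - strand: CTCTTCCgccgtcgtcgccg
EEF1A1, chr6:73521013-73521032, - strand: CTTTTTCgcaacgggtttgc

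QARS has a run of 5 pyrimidines, against 7 in EEF2 and EEF1A1, and RARS, which fell by the same amount as QARS, has none at its listed start. A RefSeq start is not a start measured in these cells.

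The lists of genes around tRNA charging are given beside the shares of all genes, of which 8.23% rose and 8.17% fell. No difference between lists was tested. EEF1A1, which brings charged tRNA to the ribosome, fell to 0.481-fold and EEF2, which moves the ribosome along, to 0.453-fold in the authors' deposited table. Of 7 measured elongation factors 5 fell and 0 rose, with a median log2 change of -0.56. Of 77 cytosolic ribosomal proteins 38 fell and 3 rose (median -0.20). Of 13 measured amino acid supply genes of the ATF4 response 6 rose and 0 fell (median 0.29), and 3 lay below 0. Those that rose included the serine synthesis enzyme PHGDH (0.64, adjusted p = 7.86e-10) and the leucine transporter chains SLC7A5 (0.63, adjusted p = 2.88e-07) and SLC3A2 (0.30, adjusted p = 0.00804), by the authors' deposited table. The median of the cytosolic synthetases was -0.015.

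Of 9 measured genes of amino acid sensing, 3 rose (ATF4, CHAC1 and DDIT4) and 1 fell (median 0.40), beside 8.23% and 8.17% of all genes. ATF4 itself stood at 0.99 (adjusted p = 1.37e-06), and EIF2S1, the α subunit of the initiation factor eIF2 that GCN2 phosphorylates, fell by 0.39 (adjusted p = 0.00226), by the authors' deposited table. The GCN2 kinase EIF2AK4 stood at -0.085 (adjusted p = 0.644) and its activator GCN1 at 0.23 (adjusted p = 0.112), by the authors' deposited table. These values describe TE alone and not the activity of the kinase.

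Genes that make and handle tRNA are given beside the 8.17% of all genes that fell. Of 26 measured genes of tRNA processing and modification 2 fell (7.69%) and 0 rose (median -0.023): ELP2 of the Elongator complex (-0.37, adjusted p = 0.00923) and DDX1 of the tRNA ligase complex (-0.24, adjusted p = 0.0482), by the authors' deposited table. Among 5 genes of tRNA export, charging aids and editing, SSB, the La protein that binds new tRNA ends, fell (-0.36, adjusted p = 0.00602, from the authors' deposited table) and 0 rose. For the mitochondrial enzymes, the partners are the mitochondrial ribosome and its factors. Of 66 mitochondrial ribosomal proteins 4 rose and 1 fell (7.58% called, median 0.064), and of 10 mitochondrial translation factors 0 rose and 1 fell (median 0.052), against 16.4% of all genes. That 1 was LRPPRC, which stabilises mitochondrial mRNAs (-0.45, adjusted p = 1.74e-05, from the authors' deposited table). IARS2, at -0.61, lay below all of them (lowest -0.45).

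**Figure D4:**
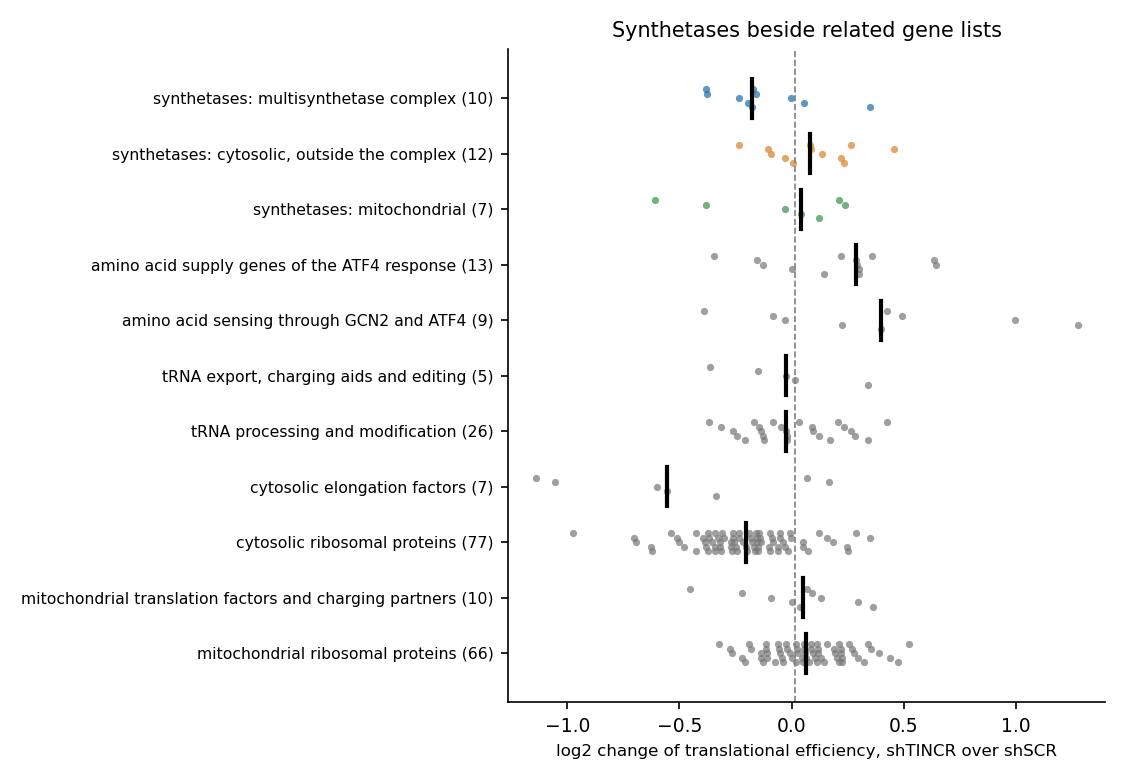
Log2 change of TE for the 3 groups of synthetases (coloured) and 8 related gene lists (grey), 1 point per gene, with each list's median as a black bar, the number of measured genes in brackets and the median of all genes as a dashed line. The median is -0.18 for complex members and 0.083 for free enzymes. It is -0.20 for cytosolic ribosomal proteins, 0.052 for mitochondrial translation factors, 0.064 for mitochondrial ribosomal proteins and 0.29 for amino acid supply genes. No difference between lists was tested.

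Of the 29 members, 11 have a named pseudogene in RefSeq, with which reads can be shared, among them WARS, RARS and IARS2. For 4 (EPRS, IARS, AIMP2 and IARS2) a small nucleolar RNA gene lies inside them. MARS and QARS have neither. The values of WARS, RARS and IARS2 are uncertain to that extent, and the part of shared reads in them was not tested.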

How the data were processed

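The submitters' processing notes name genome build hg19, the aligners Bowtie2 2.1.0 and TopHat2 2.0.8, HTSeq 0.5.3p9 and DESeq 1.10.1, with SAMtools 0.1.18 and CASAVA 1.9, and state no step for any of them. Per the file headers, the authors' deposited log2 values are the log2 TE of each hairpin and the log2 change in 2 versions with a final choice, and the deposited p-value columns hold 1 p-value per version, a final one and its adjusted value. The tool that made them, the region counted and any filter on low values were not given in the sources used here. In all 4616 rows the final p-value equals the larger of the pair, and its adjusted value matches Benjamini-Hochberg over the whole table (largest gap 2e-15).

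Members and lists were chosen by symbol and role, with earlier results of these data known. A gene counted as called at an adjusted p under 0.05, and no count test was run because the table holds no value per library. Folds are 2 to the power of the log2 change, and the implied standard error is the change divided by the normal quantile of its p-value. Of each related list, up to 4 genes past the threshold with the smallest p could be named. Symbols were matched to RefSeq (18 older names, 11 current). Calculations used scipy 1.17.1, numpy 2.4.6 and pandas 2.3.3 under Python 3.11.15, and figures matplotlib 3.10.9. The calculation of the adjustment and implied errors was run on simulated data with normal p-values. That run cannot show that the deposited p-values are of this kind.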

Additional observations from a re-analysis of the deposited data

How the results depend on the processing

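Of the 29 members, 5 passed in the authors' deposited table, beside 16.4% of all genes. The same 5 passed at an adjusted p below 0.01 and with a Benjamini-Yekutieli adjustment. With the p-value of the authors' second version 8 passed, 7 of them cytosolic, beside 20.3% of all genes. With that of the authors' first version 6 passed, beside 17.9% of all genes, and 2 of them were mitochondrial (IARS2 and RARS2, adjusted p = 0.0479 for RARS2). With a minimum log2 change of 0.5 only IARS2 was left (1 member, 0 cytosolic). The share of all genes was counted only for the main setting and the authors' first and second versions. Whether the members' counts follow the whole table under the other settings is therefore not known. Among the 18 members with no named pseudogene, adjusted over such genes alone, 2 passed (MARS and QARS), 2 cytosolic and 0 mitochondrial. Leaving out members with a pseudogene or a small nucleolar RNA gene gave the same counts of 2, 2 and 0. Here no p-value was adjusted again, and WARS, RARS and IARS2, which had passed, were among those left out. Without GARS and KARS, or without the AIMP proteins, the counts stayed at 5 and 4. This was fixed in advance, since none of these genes had passed and no p-value was adjusted again. The medians of the cytosolic and mitochondrial members ran from -0.060 to -0.015 and from 0.025 to 0.042 over the alternatives. These moves were smaller than the implied error of a typical single gene, which does not measure the spread of a median. The results listed in the design were those of all, cytosolic and mitochondrial members, and it listed no split by complex or by class. The alternatives for complex and free enzymes were chosen after seeing the data. Leaving out replicates was not run, because the table holds no value per library. No paired analysis was possible because the columns carry no replicate. Depth is unknown, so precision is known only through the implied errors.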
